A study of Caenorhabditis elegans with 12 samples.

Results

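The proneural basic helix-loop-helix (bHLH) genes described here are *lin-32* (T14F9.5), *hlh-14* (C18A3.8), *hlh-2* (M05B5.5), *hlh-3* (T24B8.6), *hlh-4* (T05G5.2), *hlh-6* (T15H9.3), *cnd-1* (C34E10.7) and *ngn-1* (Y69A2AR.29). They were chosen by name, but with earlier results of these data known, and are 8 of the 20188 genes named in the table. Each is counted in a single entry, and the entry for *hlh-2* is the isoform M05B5.5a. Proneural bHLH proteins bind DNA as dimers and commit cells to a neural fate. In *C. elegans* the class II members, such as the Atonal homologue LIN-32 and the Achaete-Scute homologues HLH-14 and HLH-3, act mostly as heterodimers with the E protein HLH-2, the homologue of Daughterless. LIN-22 is a Hes-related bHLH protein of the class that represses proneural genes, and in its absence epidermal seam cells of the V lineage can take on the neuroblast fate that produces the postdeirid, a sensory structure that includes a dopaminergic neuron.

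Messenger RNA was sequenced from whole L3 larvae collected 31 hours after hatching, with 3 libraries from each of 4 strains and 12 in all. The *lin-22(icb38)* strain carries a rearrangement whose deleted segment begins 2371 bp upstream of the *lin-22* start codon, together with *wIs51*, a GFP transgene that marks seam cells. The *lin-22(ot267)* strain carries a premature stop at codon 62, and the *lin-22(ot269)* strain a C-to-T change that lies farther upstream than the near end of that segment. Both of these carry *vtIs1*, a transgene with a dopaminergic neuron reporter, in place of *wIs51*. JR667 is wild type for *lin-22* and carries *wIs51* and the *unc-119(e2498::Tc1)* allele that its transgene rescues. The mutants are called by their alleles, *icb38*, *ot267* and *ot269*, from here on. A difference between either ot strain and JR667 cannot be told apart from one due to the transgene or the rest of the strain background, and each mutant is a single strain. By the study, the *icb38* rearrangement also removes part of the neighbouring gene *vrp-1* and holds inserted sequence of *mca-3*. A difference between *icb38* and JR667 likewise cannot be told apart from one due to these changes or to the rest of the strain background. Nothing states that the 3 libraries of a strain came from separate cultures, so p-values measure the spread between these libraries, which may be technical. The 3 comparisons with JR667 share its libraries.

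Total counts were between 56479069 and 78920246 per library. *ot267* replicate 3 stood apart in its low counts. Of the 17901 entries with 20 or more normalised counts on average in the other libraries, 208 were at 0 in it, against 1 to 40 such entries in each of the other 11 libraries. *lin-22* itself had 192 ± 81.5 normalised counts in *icb38*, 329 ± 32.4 in *ot267* and 142 ± 35.9 in *ot269*, against 287 ± 48.4 in JR667 (SD, n = 3 each). Against JR667, *lin-22* passed the test only in *ot269*, where it was lower by a log2 fold change of -1.01 (edgeR adjusted p = 0.0207). In *icb38* it was -0.57 (edgeR adjusted p = 0.207), and it passed without *icb38* replicate 1 (-0.91, edgeR adjusted p = 0.0652). Against *ot267*, *lin-22* was called lower in *icb38* (-0.77, edgeR adjusted p = 0.0834). By single-molecule FISH the study saw no *lin-22* RNA in the seam of *icb38* and a stronger signal in its intestine. Counts from whole larvae do not separate these tissues. All 45 markers of 9 cell types chosen to check the whole-larva source had counts in every library.

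Levels are given as normalised counts, which are counts divided by a size factor per library, and they are not corrected for transcript length, so levels of different genes are not compared. An entry was called where edgeR's quasi-likelihood test gave an adjusted p of at most 0.1 over the 19696 entries tested. Apart from *hlh-2*, the members were low at this depth, with between 0 and 202 counts in any library, and *ngn-1* was too low to be tested. Of the 7 members tested, 3 were called in *icb38* against JR667, where 16.2% of all entries were called (7.66% higher and 8.55% lower). These were *lin-32*, *hlh-14* and *hlh-2*, all higher. All JR667 and *ot267* counts of *hlh-14* were under 10, the minimum of the filter on low counts. It was tested only through its *icb38* and *ot269* libraries, so its direction is not independent of the filter. In *ot267* and in *ot269* 1 member was called, *hlh-2*, and it was higher in both, where 8.70% and 26.3% of all entries were called in either direction (4.10% and 12.9% higher, 4.59% and 13.4% lower). No member was called lower in any mutant against JR667. The median log2 fold change over the 7 members was 0.76 in *icb38*, 0.04 in *ot267* and 0.69 in *ot269*, beside 0.01 over all entries in each comparison. *lin-32* and *hlh-14* had been named as raised by the study from these same libraries, so their calls are no independent evidence. An F-test over the 4 strains called the same 3 members (edgeR adjusted p = 0.0168 for *lin-32*, 0.0142 for *hlh-14* and 0.00907 for *hlh-2*), where 34.9% of all entries were called.

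**Figure D1:**
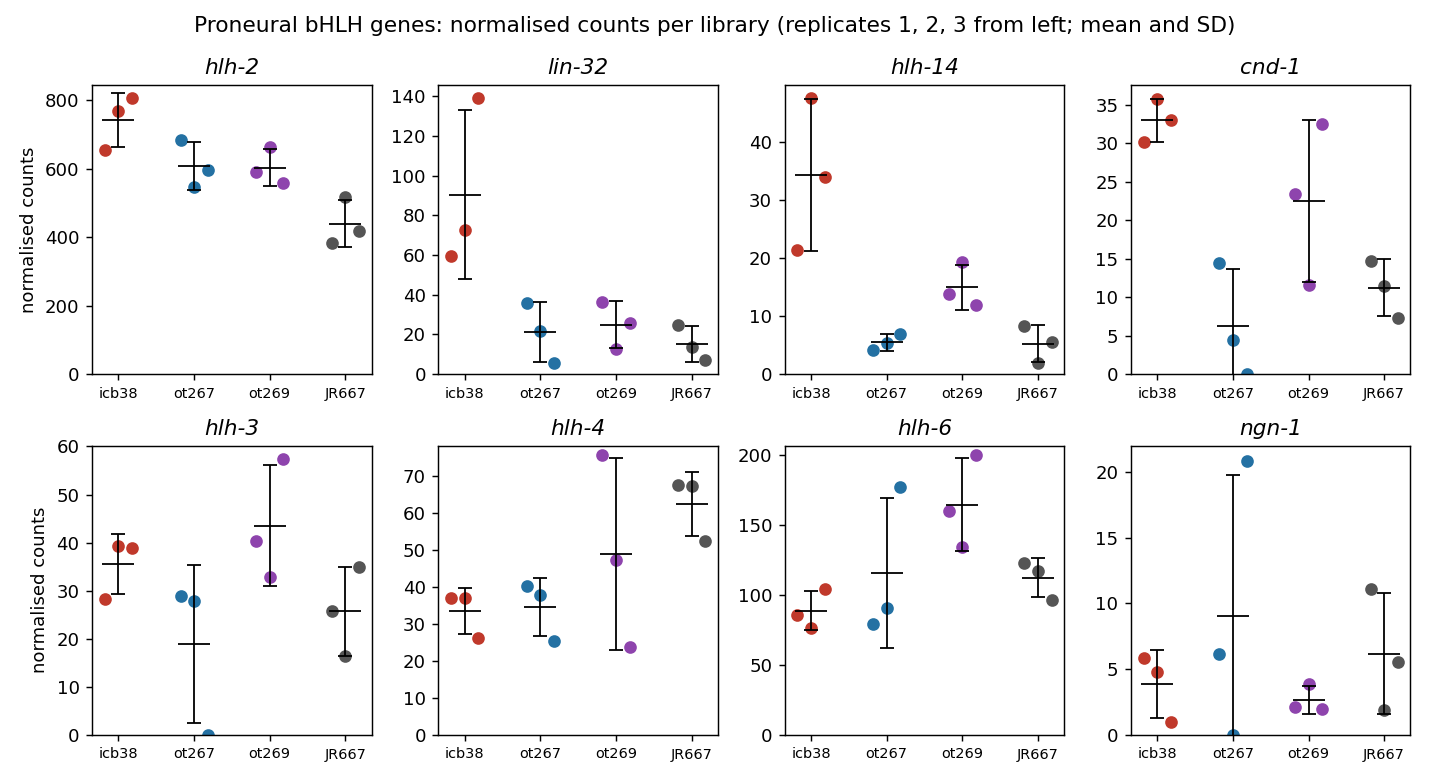
Normalised counts (vertical axis, one scale per gene, from 0) of the 8 genes in each of the 12 libraries, with points for replicates 1 to 3 and black bars for the mean and SD, which are cut off at 0. For *hlh-2* all 9 mutant libraries lie above the 3 JR667 libraries, and for *lin-32* and *hlh-14* the *icb38* libraries stand highest.

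*hlh-2* encodes the shared dimer partner and was the best counted member. It had 654, 769 and 805 normalised counts in the *icb38* libraries, 684, 546 and 595 in *ot267* and 590, 662 and 557 in *ot269*, against 384, 516 and 417 in JR667. Every mutant library was thus above every JR667 library, a pattern held by 624 of the 19696 entries (3.17%), and *hlh-2* was called higher in all 3 mutants, as were 270 entries (1.37%). The log2 fold change was 0.76 in *icb38* (standard error 0.144, edgeR adjusted p = 0.0042), from 743 ± 78.9 normalised counts in the mutant and 439 ± 68.5 in JR667 (SD, n = 3 each). It was 0.47 in *ot267*, at 608 ± 70.1 normalised counts (standard error 0.144, edgeR adjusted p = 0.0753), and 0.46 in *ot269*, at 603 ± 53.4 (standard error 0.144, edgeR adjusted p = 0.0386).

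These calls were not equally firm. In *icb38* the *hlh-2* call held in all 6 fits that each left out 1 of the libraries compared, with log2 fold changes between 0.67 and 0.89. In *ot267* the call was lost in 4 of the 6 fits, those without *ot267* replicate 1 (0.38) or 3 (0.49) and without JR667 replicate 1 (0.38) or 3 (0.43), and the edgeR adjusted p over the 6 fits was between 0.0394 and 0.231. In *ot269* it was lost without *ot269* replicate 2 (0.38) and without JR667 replicate 1 (0.37) or 3 (0.42), with an edgeR adjusted p between 0.0174 and 0.146 over the 6 fits. Between mutants no *hlh-2* difference was called. The log2 fold change was 0.29 in *icb38* against *ot267* (edgeR adjusted p = 0.209), -0.01 in *ot269* against *ot267* (edgeR adjusted p = 0.976) and -0.30 in *ot269* against *icb38* (edgeR adjusted p = 0.195).

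*lin-32* is the Atonal family gene that specifies neuroblasts of several sensory lineages, the postdeirid among them. Its normalised counts were 59.5, 72.7 and 139 in *icb38*, 36.1, 21.6 and 5.79 in *ot267* and 36.2, 12.5 and 25.7 in *ot269*, against 24.9, 13.4 and 7.36 in JR667. The *icb38* libraries were above all 9 others, as for 3.54% of entries, while each ot mutant overlapped JR667. Replicate 3 of *icb38* was the highest of all, and the call against JR667, a log2 fold change of 2.56 with all libraries (standard error 0.648, edgeR adjusted p = 0.0216), rested on it, since the value without it was 2.10 and the edgeR adjusted p over the 6 fits ran between 0.0196 and 0.112.

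*hlh-14*, an Achaete-Scute family gene that acts in the lineage of the PVQ, HSN and PHB neurons, was the lowest counted of the members tested. Its normalised counts were 21.4, 47.6 and 34.1 in *icb38*, 4.12, 5.40 and 6.95 in *ot267* and 13.8, 19.3 and 11.9 in *ot269*, against 8.31, 1.92 and 5.52 in JR667. The *icb38* libraries were again the highest, the *ot269* libraries lay between them and JR667 with no overlap on either side (below all of *icb38* in 18% of entries), and the *ot267* libraries fell within the JR667 range. Libraries that all lay above JR667 were found for 13.2% of entries in *icb38* and 19.9% in *ot269*. The log2 fold change against JR667 was 2.67 in *icb38* (standard error 0.675, edgeR adjusted p = 0.0214) and kept its call without each library in turn. In *ot269* it was 1.49 and did not pass (standard error 0.678, edgeR adjusted p = 0.143).

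*cnd-1*, the NeuroD family gene that acts in ventral cord motor neurons, had 30.2, 35.7 and 33.1 normalised counts in *icb38*, 14.4, 4.50 and 0 in *ot267* and 23.4, 11.6 and 32.6 in *ot269*, against 14.8, 11.5 and 7.36 in JR667. The *icb38* libraries were close to each other and above all 3 of JR667, as for 13.2% of entries. The difference was not called (log2 fold change 1.55, standard error 0.784, edgeR adjusted p = 0.236). In a fit of only these 6 libraries it was 1.56 and passed (edgeR adjusted p = 0.0841), the 1 of 8 alternatives that kept all 6 libraries to do so. The other mutants overlapped JR667, at log2 fold changes of -0.80 in *ot267* (edgeR adjusted p = 0.632, between -2.16 without *ot267* replicate 1 and -0.26 without *ot267* replicate 3) and 0.997 in *ot269* (edgeR adjusted p = 0.414).

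*hlh-3*, an Achaete-Scute family gene needed for differentiation of the HSN neuron, was called in no comparison. Its normalised counts were 28.3, 39.3 and 38.9 in *icb38*, 28.8, 27.9 and 0 in *ot267* and 40.4, 32.8 and 57.3 in *ot269*, against 25.9, 16.3 and 34.9 in JR667. Each mutant overlapped JR667. The value of 0 was in *ot267* replicate 3, the library that held the most entries at 0 and that also held 0 counts of *cnd-1*. Without it the *hlh-3* log2 fold change in *ot267* was 0.14, on the other side of 0 from the -0.42 with all libraries.

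*hlh-4* and *hlh-6*, also of the Achaete-Scute family, are known for later roles, *hlh-4* in the identity of the ADL sensory neuron and *hlh-6* in the pharyngeal glands. *hlh-4* had 37.04, 36.9 and 26.3 normalised counts in *icb38*, 40.2, 37.8 and 25.5 in *ot267* and 75.5, 47.3 and 23.7 in *ot269*, against 67.4, 67.1 and 52.4 in JR667. All libraries of *icb38* and *ot267* were below those of JR667, as was found for 15% and 12% of entries, and neither difference was called (log2 fold change -0.90 in *icb38*, edgeR adjusted p = 0.209, and -0.85 in *ot267*, edgeR adjusted p = 0.289). The *ot269* libraries ran from below to above all others. 2 non-coding RNA genes overlap *hlh-4* in the WBcel235 gene table, so its counts may include their reads, while none overlaps the other 7 members.

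*hlh-6* had 85.8, 76.2 and 104 normalised counts in *icb38*, 79.3, 90.8 and 177 in *ot267* and 159, 134 and 199.5 in *ot269*, against 123, 117 and 96.6 in JR667. Its libraries in *ot269* were above all of JR667, as for 19.9% of entries, and above all of *icb38*, as for 18.8%. The difference from JR667 was not called (log2 fold change 0.55, standard error 0.292, edgeR adjusted p = 0.207). The summed level of 5 pharyngeal gland genes (*phat-1* to *phat-5*) went the other way, between 9291 and 12062 normalised counts in *ot269*, against 14591 and 16420 in JR667, with 1 of the 5 called higher and 2 lower. Of all entries 12.9% were called higher and 13.4% lower in that comparison.

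*ngn-1*, the Neurogenin family gene, had too few counts for the test. Its counts were 6, 4 and 1 in *icb38*, 6, 0 and 18 in *ot267* and 2, 4 and 2 in *ot269*, against 12, 2 and 6 in JR667. The sums per strain were 11 in *icb38* (exact 95% Poisson interval 5.49 to 19.7), 24 in *ot267* (15.4 to 35.7) and 8 in *ot269* (3.45 to 15.8), against 20 in JR667 (12.2 to 30.9), intervals that cover counting error only. Most of the *ot267* sum came from 1 library. In a fit without the filter *ngn-1* did not pass in *icb38* (log2 fold change -0.67, edgeR adjusted p = 0.819), *ot267* (0.52, edgeR adjusted p = 0.877) or *ot269* (-1.18, edgeR adjusted p = 0.611), with standard errors of 1.26 or more. An exact two-sided permutation test on the normalised counts gave p = 0.6, 1 and 0.4 for *icb38*, *ot267* and *ot269* against JR667, but with 3 libraries against 3 that test cannot go below 0.1 and could not have passed at 0.05.

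**Figure D2:**
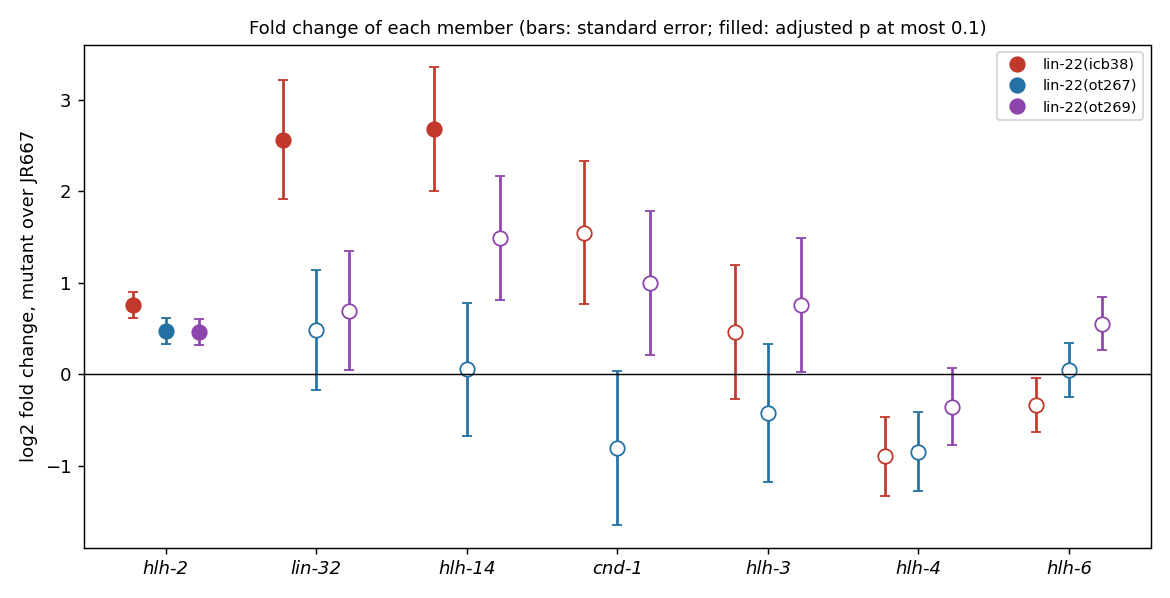
Log2 fold change of the 7 tested genes in each mutant over JR667 (vertical axis), with bars for the standard error and filled points where the adjusted p was at most 0.1. The filled points are *hlh-2* in all 3 mutants and *lin-32* and *hlh-14* in *icb38*, and the standard errors are smallest for *hlh-2*.

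The mutants were also compared with each other. *icb38* carries *wIs51* and the ot strains *vtIs1*, so a difference between *icb38* and either of them again cannot be told apart from one of transgene or background. Against *ot267*, *icb38* had 3 of the 7 tested members called, all higher, where 18.1% of all entries were called (7.91% higher and 10.2% lower). They were *lin-32* whose log2 fold change was 2.08 (standard error 0.632, edgeR adjusted p = 0.0448), *hlh-14* at 2.62 (standard error 0.679, edgeR adjusted p = 0.0212) and *cnd-1* at 2.35 (standard error 0.828, edgeR adjusted p = 0.0805). All 3 genes had *icb38* libraries above all those of *ot267*, as 16.5% of entries did. Of these genes, *hlh-14* had passed the filter on low counts only through *icb38* and *ot269*. The *lin-32* call was lost without *icb38* replicate 3 (1.63) or *ot267* replicate 2 (2.09) or 3 (1.65), with an edgeR adjusted p over the 6 fits between 0.0381 and 0.191. The *hlh-14* call was lost without *icb38* replicate 2 (2.32), over a range of edgeR adjusted p between 0.0334 and 0.103. That of *cnd-1* was lost in 5 of the 6 fits and held only without *ot267* replicate 1 (3.71), with log2 fold changes no lower than 1.81 and an edgeR adjusted p between 0.0329 and 0.197.

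Against *ot267*, *ot269* had no member called by edgeR or by DESeq2, where edgeR called 9.93% of all entries (5.63% higher and 4.30% lower), and 1 member, *cnd-1*, had an unadjusted p under 0.05 (log2 fold change 1.80, edgeR adjusted p = 0.242). Leaving out a library added a call for *cnd-1* without *ot267* replicate 1 (3.15, edgeR adjusted p = 0.0943, the lowest of the 6 fits) and for *hlh-6* without *ot267* replicate 3 (0.94, edgeR adjusted p = 0.0471, the lowest of the 6 fits). *ot269* against *icb38* gave 2 calls in opposite directions, where 18.3% of all entries were called (9.75% higher and 8.53% lower). *hlh-6* was higher in *ot269* by 0.89 on the log2 scale (standard error 0.296, edgeR adjusted p = 0.0652) and *lin-32* was lower, at -1.87 (standard error 0.625, edgeR adjusted p = 0.0653). Each was lost in 4 of the 6 fits with a library left out. *hlh-6* then lay between 0.72 and 1.02, without a call when *icb38* replicate 1 or 2 or *ot269* replicate 1 or 3 was absent (edgeR adjusted p between 0.0846 and 0.221 over the 6 fits). *lin-32* lay between -2.24 and -1.41, without a call when *icb38* replicate 2 or 3 or *ot269* replicate 2 or 3 was absent (edgeR adjusted p between 0.0748 and 0.268 over the 6 fits). The gland gene sum was between 9291 and 12062 normalised counts in *ot269*, against 16365 and 16822 in *icb38*.

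**Figure D3:**
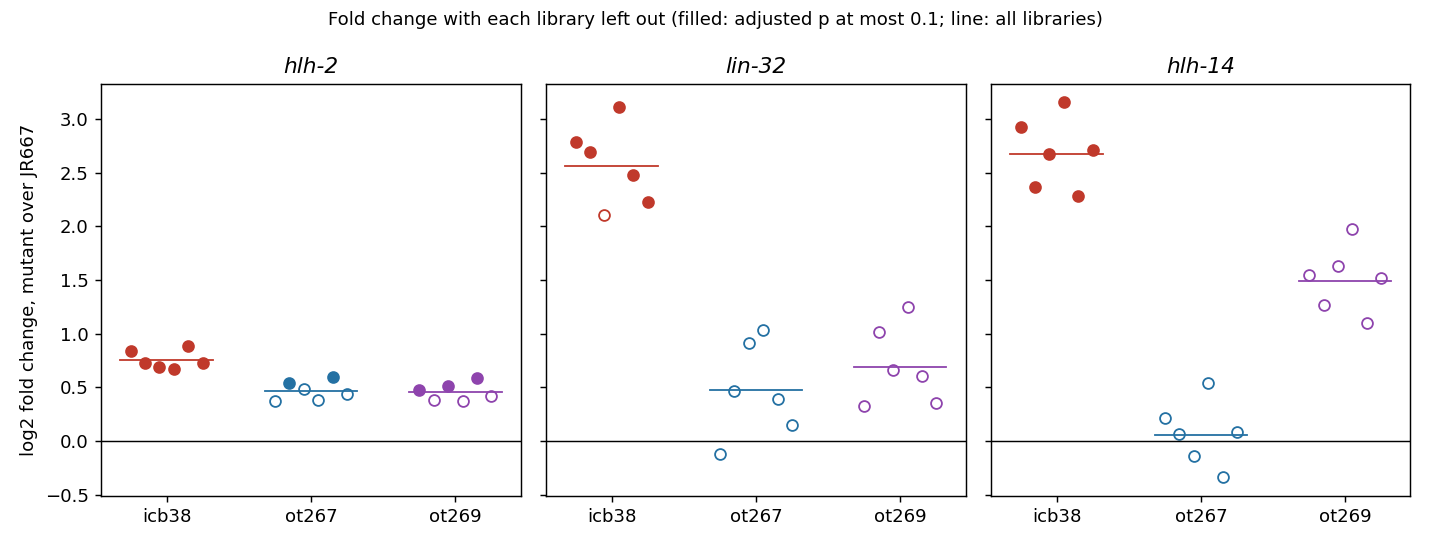
Log2 fold change over JR667 (vertical axis) of *hlh-2*, *lin-32* and *hlh-14* in each mutant when 1 of the 6 libraries compared was left out (points, filled where the adjusted p was at most 0.1), with a line for the value from all libraries. In *icb38* every point is filled for *hlh-2* and *hlh-14* and 1 is open for *lin-32*, while in the ot mutants filled points occur for *hlh-2* alone.

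Cell type markers were measured beside the members, since in whole larvae a change in the number of cells of a type and a change in RNA per cell cannot be told apart. The marker lists too were chosen with earlier results of these data known. The summed level of 5 dopaminergic genes (*dat-1*, *cat-2*, *cat-1*, *bas-1* and *dop-2*) was between 4827 and 5048 normalised counts in *icb38*, between 3672 and 3897 in *ot267* and between 3455 and 4049 in *ot269*, against 3186 and 3574 in JR667. Of the 5, 4 were called higher in *icb38*, 2 in *ot267* and 2 in *ot269*, where 7.66%, 4.10% and 12.9% of all entries were. The *dat-1* promoter also drives the *vtIs1* reporter of both ot strains. The sum of 8 genes expressed by neurons in general was between 15644 and 19655 in *icb38*, between 14109 and 14669.5 in *ot267* and between 14869 and 16854.5 in *ot269*, against 13872 and 17439 in JR667, so each mutant overlapped JR667, with 2 of the 8 called higher in *icb38*, 0 in *ot267* and 1 in *ot269*. The sum of 7 seam cell genes was between 4104 and 4654 in *icb38*, between 2925 and 3379 in *ot267* and between 4797 and 5228 in *ot269*, against 2459 and 3603 in JR667, with 2, 0 and 6 of the 7 called higher in *icb38*, *ot267* and *ot269*. Of 4 germline genes, 1 was called higher and 3 lower in *icb38* against JR667, where 7.66% and 8.55% of all entries were. None was called in the other mutants against JR667. Their sum was between 19710 and 26978 in *icb38*, between 40434 and 43870 in *ot267* and between 32553 and 37548 in *ot269*, against 24939 and 43948 in JR667. The *icb38* sums overlapped those of JR667 through JR667 replicate 1, which had the 24939. Of the 4 genes, 3 were also lower in *icb38* against *ot267*, where 10.2% of all entries were. The part of these cell types in the levels of the members was not tested.

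Of 15 further genes of the bHLH family 13 could be tested, and edgeR called 0 in *icb38* (2 at an unadjusted p under 0.05, 0 by DESeq2), 0 in *ot267* (0 and 0) and 1 in *ot269* (DESeq2 also called 1), where 16.2%, 8.70% and 26.3% of all entries were called. Their median log2 fold changes were 0.17, 0.07 and 0.12 in *icb38*, *ot267* and *ot269*. The gene called was *hlh-8*, the Twist homologue of the mesoderm, at 69.5 ± 10.8 normalised counts in *ot269* and 141 ± 44.2 in JR667 (SD, n = 3 each), a log2 fold change of -1.02 (edgeR adjusted p = 0.0194). JR667 replicate 3 decided that call, and without it the value was -0.74 (edgeR adjusted p = 0.109, the highest of the 6 fits, whose lowest was 0.0199). *hlh-15* and *hlh-31* had at most 8 and 19 counts in a library and were not tested. A further list of 8 genes held Hes-related genes and *unc-37*, the Groucho homologue, whose protein LIN-22 does not bind by the study. Only *lin-22*, *ref-1* and *unc-37* had the counts for a test, and *lin-22* in *ot269* was the single call against JR667. *hlh-25* to *hlh-29*, relatives of *lin-22*, had between 0 and 4 counts in any library.

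Regulators of neuronal fate, Hox genes among them, were listed next. The list was drawn up with earlier results of these data known, so its share of calls is no independent evidence. All 21 regulators on the list were tested, and 7 were called higher in *icb38*, 2 in *ot267* and 4 in *ot269*, with none lower. Of all entries 7.66%, 4.10% and 12.9% were called higher in the same comparisons, and the counts in *ot267* and *ot269* are not far above those shares. The median log2 fold changes were 0.33, -0.08 and 0.25 in *icb38*, *ot267* and *ot269*, beside 0.01 over all entries.

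*mec-3*, a LIM homeobox gene of the touch receptor and PVD neurons, was called in all 3 mutants. It had 187 ± 27.8 normalised counts in *icb38*, 177 ± 35.5 in *ot267* and 194 ± 21.5 in *ot269*, against 87.4 ± 16.9 in JR667 (SD, n = 3 each). The log2 fold changes were 1.10, 1.02 and 1.15 in *icb38*, *ot267* and *ot269* (edgeR adjusted p = 0.00641, 0.0148 and 0.00258), and each call held without each library in turn. The summed level of 4 touch receptor genes (*mec-7*, *mec-12*, *mec-17* and *mec-18*) was between 41293 and 49879 in *icb38*, between 12115 and 13813 in *ot267* and between 13505 and 15080 in *ot269*, against 30134 and 38890 in JR667, with 1, 2 and 3 of the 4 genes called higher in *icb38*, *ot267* and *ot269* and 0, 1 and 1 lower. Of all entries 7.66%, 4.10% and 12.9% were called higher in the same comparisons, and 8.55%, 4.59% and 13.4% lower. The sum was set mostly by *mec-17*, at 38080 ± 4821 normalised counts in *icb38*, 3351 ± 328 in *ot267* and 3200 ± 418 in *ot269*, against 27415 ± 4127 in JR667 (SD, n = 3 each). It was the gene called lower in both ot strains, which carry *vtIs1*, and the part of the transgenes in this was not tested. *mec-7* and *mec-18* were called higher in both ot strains and *mec-12* in *ot269*.

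*ztf-11*, a Myt1 family zinc finger gene of neurogenesis, was also called in all 3, at 670 ± 31.5 normalised counts in *icb38*, 463 ± 36.04 in *ot267* and 537 ± 23.1 in *ot269*, against 313 ± 90.6 in JR667 (SD, n = 3 each). The log2 fold changes were 1.10, 0.57 and 0.78 in *icb38*, *ot267* and *ot269* (edgeR adjusted p = 0.00107, 0.0656 and 0.00503). The *ot267* call was lost without *ot267* replicate 1 (0.54) or 3 (0.53) or JR667 replicate 1 (0.44) or 3 (0.46), and its edgeR adjusted p over the 6 fits was between 0.00488 and 0.189. It was also lost in a fit of only the 6 libraries compared (0.56, edgeR adjusted p = 0.232).

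Of the other 7 calls, 5 were in *icb38* and 2 in *ot269*. *egl-46*, a zinc finger gene of the touch receptor and other neuronal lineages, had 637 ± 321 normalised counts in *icb38* and 185 ± 29.9 in JR667 (SD, n = 3 each), a log2 fold change of 1.78 (edgeR adjusted p = 0.0017). *ast-1*, an ETS gene that specifies dopaminergic neurons, was higher by 0.81 (edgeR adjusted p = 0.00275), and *ceh-43*, the Distal-less homologue that acts with it, by 0.91 (edgeR adjusted p = 0.00364). *unc-3*, the COE gene of cholinergic motor neurons, was higher by 0.62 (edgeR adjusted p = 0.0333), a call lost without *icb38* replicate 3 (0.56) or JR667 replicate 3 (0.55), with an edgeR adjusted p between 0.028 and 0.122 over the 6 fits. *lin-39*, a Hox gene of the mid-body, was higher by 0.33 in *icb38* (edgeR adjusted p = 0.0805) and by 0.37 in *ot269* (edgeR adjusted p = 0.0338). Its calls were lost in 4 of 6 fits in *icb38* (without *icb38* replicate 2 or 3 or JR667 replicate 2 or 3, the lowest value being 0.23) and in 2 of 6 in *ot269* (without *ot269* replicate 1, 0.31, or JR667 replicate 3, 0.27). *ceh-43* in *ot269* was higher by 0.47 (edgeR adjusted p = 0.0674), a call lost without *ot269* replicate 1 (0.34) or 3 (0.49) or JR667 replicate 3 (0.31).

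**Figure D4:**
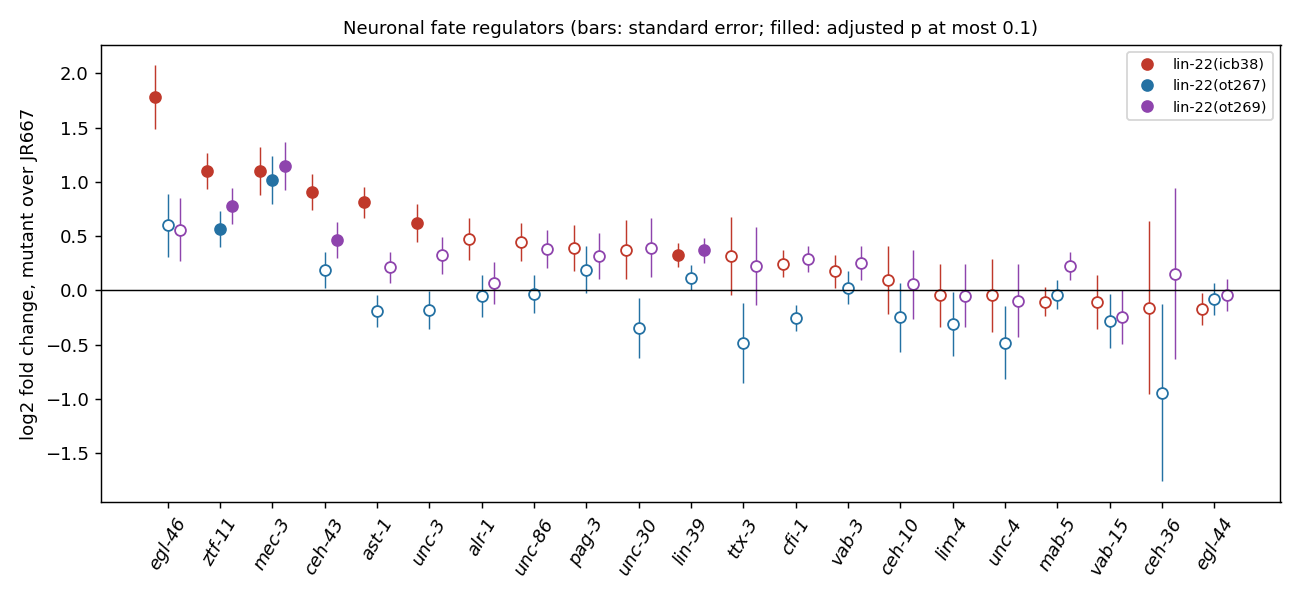
Log2 fold change over JR667 (vertical axis) of the 21 neuronal fate regulators in each mutant, ordered by the value in *icb38*, with bars for the standard error and filled points where the adjusted p was at most 0.1. Filled points number 7 in *icb38*, 2 in *ot267* and 4 in *ot269*, and all lie above 0. The list was chosen with earlier results of these data known.

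The genes whose levels were most like each member over the 12 libraries were found by the Pearson correlation of log2(normalised count + 1), among the 14048 genes whose mean was 20 normalised counts or more. The libraries share strain and depth, so these values are a description. For *hlh-2* they were *trp-4* (r = 0.94), which encodes a channel of the dopaminergic neurons, *ztf-11* (0.93) and *tag-180* (0.92). The mean of *trp-4*, picked for its likeness to *hlh-2*, was 543 normalised counts in *icb38*, 381 in *ot267* and 369 in *ot269*, against 261 in JR667. For *lin-32* they were M60.4 (0.92), the ONECUT gene *ceh-48* (0.91) and *nhr-186* (0.90), and for *hlh-14* they were R08F11.4 (0.91), *mks-5* (0.90), which encodes a protein of the ciliary transition zone, and *hrg-9* (0.90).

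For *cnd-1* the genes were F35H12.6 (0.96), *unc-30* (0.94), a homeobox gene of GABAergic motor neurons, and *clpr-3* (0.93). For *hlh-3* they were Y62H9A.13 (0.98), *tmem-231* (0.98) and T06E6.15 (0.97). *hlh-4* was closest to C13C4.7 (0.87), *nhr-287* (0.82) and *arx-6* (0.80), and *hlh-6* to *gpa-17* (0.90), F39H12.1 (0.90) and F10D7.4 (0.88). By Spearman correlation, 0 of the 3 genes of *cnd-1* and of *hlh-3*, 1 of the 3 of *lin-32*, *hlh-2* and *hlh-6*, and all 3 of *hlh-14* and *hlh-4* were among the closest 20. *cnd-1* and *hlh-3* were both at 0 in *ot267* replicate 3.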

How the data were processed

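The authors aligned reads of stranded mRNA libraries with Bowtie2 and deposited whole-number counts per transcript from bedtools, while versions, genome build and strand setting are not given in the sources used here. Their counts normalised with DESeq were not used. The test was edgeR's quasi-likelihood test (version 4.0.16 in R 4.3.3) with RLE size factors and a single model for the 12 libraries. filterByExpr, at a count minimum of 10, left 19696 entries, and Benjamini-Hochberg adjusted p-values over these were held to 0.1, the study's FDR. Standard errors were approximated from the fold change and the F statistic. The procedure was run on simulated data in which every entry had the same biological coefficient of variation (0.165). That does not show how the test behaves for entries with a larger spread. Alternatives were a threshold of 0.05, TMM, library totals, no filter, a minimum of 10 counts in each library, a replicate block, 1 entry per gene, only the 6 libraries compared, DESeq2 1.42.0 and each library left out. Members and lists were chosen with earlier results of these data known. Every member was named, of the lists only genes called against JR667, and the 3 most similar genes per member. Names came from the WBcel235 gene table. Sequences and levels per length were not used here. Python 3.11.15 with numpy 2.4.6, pandas 2.3.3, scipy 1.17.1 and matplotlib 3.10.9 made tables and plots.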

Additional observations from a re-analysis of the deposited data

How the results depend on the processing

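The 3 members called in *icb38* against JR667 became 1 when 10 counts were required in every library, a filter that leaves fewer members to test, and the same filter gave 0 in place of 3 for *icb38* against *ot267*, 1 in place of 2 for *ot269* against *icb38* and 1 in place of 3 over the 4 strains. The single call in *ot267* was lost (0) at an adjusted p of 0.05, in a fit of only the 6 libraries (*hlh-2* at 0.46, edgeR adjusted p = 0.207) and with a replicate block (0.48, edgeR adjusted p = 0.11), and both calls of *ot269* against *icb38* were lost (0) at 0.05. The labels do not say whether the replicate numbers pair the libraries. Over 18 pairs with the same number the correlation of deviations was between -0.32 and 0.13. Over 36 pairs with other numbers it was between -0.29 and 0.31. These values show no pairing by number, but with 3 libraries per strain they could not exclude a weak one. The block turned *hlh-6* in *ot267* to -0.032, against 0.041 without it. Besides the call of *hlh-2* in *ot267*, the block cost *ceh-43* in *ot269* and *lin-39* in *icb38* their calls. It changed no other call of a gene named here against JR667. *ceh-43* in *ot269* (0.46, edgeR adjusted p = 0.111) and *lin-39* in *icb38* (0.34, edgeR adjusted p = 0.177) were also lost in fits of only the 6 libraries, and *lin-39* with library totals (0.33, edgeR adjusted p = 0.129).

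With 1 library left out, the members called numbered 0 to 1 in *ot267* and 0 to 1 in *ot269* against JR667, 1 to 3 in *icb38* against *ot267*, 0 to 1 in *ot269* against *ot267* and 0 to 1 in *ot269* against *icb38*. Values that were not called and changed sign were, in *ot267* against JR667, *lin-32* (-0.12 to 1.03), *hlh-14* (-0.33 to 0.54), *hlh-3* (-0.83 to 0.14) and *hlh-6* (-0.39 to 0.25). In *icb38* against *ot267* they were *hlh-4* (-0.22 to 0.10) and *hlh-6* (-0.58 to 0.062), and in *ot269* against *ot267* they were *lin-32* (-0.22 to 0.81) and *hlh-2* (-0.087 to 0.078), which was also 0.035 with library totals. The cause was not tested. Library totals moved the median of all entries in *ot269* against JR667 to 0.14, against 0.01, and the share of its calls that were higher to 72.6%, against 48.9%, and that in *ot267* to 67.3%, against 47.2%. No call of a member changed with them. Over all entries, a fit of only the 6 libraries called 1859 in *icb38* and 817 in *ot267* against JR667, where 3192 and 1713 were called with all libraries. Leaving out 1 library also moved these counts by over 1.5 times, to 1762 (without JR667 replicate 3) and 2000 (without *icb38* replicate 3) in *icb38*, to 854 (without *ot267* replicate 3) in *ot267* and to 3375 (without *ot269* replicate 1, of 5176) in *ot269*. Between mutants they moved to 2297 of 3563 in *icb38* against *ot267* (without *icb38* replicate 2), to 1019, 1090 or 1292 of 1956 in *ot269* against *ot267* (without *ot269* replicate 1 or 3 or *ot267* replicate 2) and to 2325, 2141 or 2339 of 3602 in *ot269* against *icb38* (without *ot269* replicate 1, 2 or 3). Low counts limit what can be detected for every member but *hlh-2*.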
